A study of Mus musculus with 2 samples.

Results

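Pericytes and vascular mural cells made up 59 of 15632 cells of mouse mammary gland in which at least 500 genes were detected, namely 26 of 6297 cells of the library labelled Ctrl and 33 of 9335 cells of the one labelled CL. A cell was taken as a member when the 6 genes Rgs5, Notch3, Ndufa4l2, Kcnj8, Abcc9 and Higd1b together gave at least 5 UMIs (unique molecular identifiers, each standing for 1 captured transcript) with at least 2 of them detected, when that sum exceeded Dcn plus Lum, when Ptprc and Cdh5 were at 0, and when Krt8, Krt18 and Krt14 summed to under 10 UMIs. These 6 genes and the 7 excluding genes are therefore a description of how members were found and not a result. The study asked what clodronate liposomes, which kill the phagocytes that take them up, did to the cell make-up of the gland. One droplet library came from glands of control mice and one from mice given the liposomes. Both groups were wild-type females of 9 to 10 weeks by the labels, and how many animals went into each library was not given in the sources used here. Cells carrying CD31 or TER119 had been removed by flow sorting, so endothelial and red cells were depleted before loading in both groups. The liposomes went into the whole animal and act on any phagocyte, so the group is not a change made in mural cells themselves.

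Pericytes and vascular smooth muscle cells wrap the endothelial tube of capillaries, arterioles and venules, share its basement membrane, and set vessel calibre by contraction. Endothelial PDGF-B recruits them through the receptor encoded by Pdgfrb, and signals from endothelial Jagged ligands reach them through Notch3, a Notch receptor of mural cells. Cells on capillaries usually hold little contractile protein, whereas those on arterioles are rich in smooth muscle actin and myosin, so a mural population is normally a gradient. In the mammary gland the basal (myoepithelial) cells carry much of the same contractile machinery, and Procr, the endothelial protein C receptor, has been used there to mark a stem cell fraction among basal cells.

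One library stood for each condition, so no difference below was tested against animal-to-animal spread. Intervals are exact 95% intervals and cover counting error only, and values are UMIs summed over member cells per 1000000 UMIs of those cells (CPM). The members had a median of 6810 UMIs and 2266 genes in the library labelled Ctrl and of 6504 UMIs and 2211 genes in that labelled CL. The lowest members had 1685 and 3931 UMIs, and the lowest contractile tertile had a median of 3835 and 7338 UMIs. Mitochondrial transcripts made up a median of 5.03% and 5.4% of their UMIs. No member shared its barcode with a member of the other library, although 22 barcodes occurred among the candidate cells of both. One member of the library labelled Ctrl, and none of that labelled CL, was marked as a doublet. Over all cells, a list of 8 macrophage genes stood at 275 CPM (272 to 279) in the library labelled Ctrl and 437 CPM (434 to 441) in that labelled CL, so that the list was not lower in the library labelled CL. Ptprc-positive immune cells were 4.16% of cells (262) and 9.83% (918). The share of cells with at least 5 UMIs of the list was 20.2% (19.2 to 21.2) and 19.6% (18.8 to 20.5), its level within immune cells was 4909 and 4988 CPM, and luminal cells held 200 and 196 CPM. The study itself reported fewer macrophages after the liposomes, by flow cytometry, by staining and in its own single-cell clusters. The libraries are named by their labels throughout.

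The members had the genes of the vessel wall and few of the genes of their neighbours, Fabp4 and Gsn apart. Counted over both libraries, the 15 genes outside the rule with the highest level in members relative to all other cells were Tbx5, Rgs4, Pcp4l1, Des, Gucy1a1, Dgkb, Nrip2, Rcan2, Aspn, Map3k7cl, Pde3a, S1pr3, Rgs7bp, Mustn1 and Sncg, a ranking that follows from how the cells were chosen. Rgs4, a brake on G protein signalling, stood at 583 CPM in members and 0.686 CPM in all other cells. Des, the muscle intermediate filament desmin, stood at 595 against 0.987 CPM. Gucy1a1, a subunit of the nitric oxide receptor, stood at 339 against 0.597 CPM. Lists of immune genes gave 2 and 5 UMIs in all members together and macrophage genes 11 and 6 UMIs, while Ptprc and Cdh5 were at 0 by the rule. The adipocyte list gave 4 UMIs in 4 cells and 23 UMIs in 14 cells, a log2 ratio of CPM of 2.19 (0.64 to 4.18). The basal keratin list (Krt5, Krt17, Trp63 and others) stood at 159 CPM or less in members (27 and 36 UMIs). That was below its 2589 and 2854 CPM in empty droplets and its 16656 and 15118 CPM in basal cells. The CPM of empty droplets describes the free RNA itself, and how much of it each member held was not measured. Members were also limited on Krt8, Krt18 and Krt14, so low epithelial levels follow in part from the rule. The luminal list stood at 472 and 573 CPM, again below the 12116 and 11359 CPM of empty droplets. The fibroblast list stood at 1605 and 1142 CPM against 26179.5 and 20961 CPM in fibroblasts, mostly through Gsn, which encodes the actin-severing protein gelsolin, and 5 of its 10 genes were at 0 in each library. Of the endothelial list 6 and 4 of 10 genes were at 0, and its sum of 4782 and 6025 CPM was almost wholly Fabp4, a lipid carrier found in capillary and fat cells, at 4533 and 5708 CPM in members and 8478 and 9144 CPM in endothelial cells.

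The 6 genes of the rule differed in how evenly members carried them. Notch3 had at least 1 UMI in 26 of 26 cells and 33 of 33 cells, with a lowest, median and highest count per cell of 1, 4 and 18 UMIs in the library labelled Ctrl and 1, 5 and 15 in that labelled CL. It is not confined to members. Luminal cells, 81.2% and 76.5% of cells, held 86.1% and 83.6% of all Notch3 UMIs, and members 4.05% and 3.97%. Ndufa4l2, a mitochondrial protein induced by low oxygen, was detected in 22 and 31 cells. Rgs5, the regulator of G protein signalling long used as a pericyte marker, was detected in 17 of 26 cells against 9 of 33. Higd1b, another hypoxia-family gene, was seen in 14 and 11 cells. Abcc9 and Kcnj8, the subunits of the vascular potassium channel closed by ATP, were seen in 8 and 2 cells of the library labelled Ctrl and in 1 and 2 cells of that labelled CL. Of the marker genes of the label, Notch3, Ndufa4l2, Pdgfrb and Procr were thus found in most members of both libraries, and Rgs5 and Higd1b in most members of the library labelled Ctrl alone. Members ranged from 5 to 70 UMIs of the 6 genes in the library labelled Ctrl (median 15.5) and from 5 to 30 in that labelled CL (median 11). Just inside the threshold, the 2 and 3 cells with 5 or 6 UMIs held 27194 and 29401 CPM of Acta2, Tagln and Myh11 together. Just outside it, 1 and 6 cells with 3 or 4 UMIs met every other condition, and held 1978 and 25663 CPM. Of the 72 and 87 cells with a sum of at least 5, 37 and 45 had only 1 of the 6 genes, which was Notch3 each time, and 36 and 50 failed on keratin, categories that overlap.

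The share of members did not differ between the libraries beyond counting error. They were 0.413% of all cells (0.27 to 0.604) in the library labelled Ctrl and 0.354% (0.243 to 0.496) in that labelled CL, a log2 ratio of -0.22 (-1.01 to 0.58). Among mural, fibroblast and endothelial cells together they were 8.5% of 306 (5.63 to 12.2) and 10.7% of 309 (7.47 to 14.7), a log2 ratio of 0.33 (-0.46 to 1.13). Each interval reaches past a 2-fold change in 1 direction, and the direction differed between the denominators. The sort, dissociation and loading set these shares as well as the tissue, and their part was not tested.

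Smooth muscle contraction genes were abundant in nearly every member. Acta2, smooth muscle actin, had at least 1 UMI in every member, with a lowest, median and highest level per cell of 302, 7763 and 19324 CPM in the library labelled Ctrl and of 550.3, 9732 and 23724 CPM in that labelled CL. The ranges of the libraries overlapped almost completely. Tagln, the actin-binding protein transgelin, stood at 9154 and 11173 CPM and was detected in 25 of 26 and 33 of 33 cells. Myh11, smooth muscle myosin heavy chain, stood at 2399.6 and 2466 CPM, in 23 and 33 cells. These genes are shared with basal cells, where Acta2 stood at 7279 and 8100.3 CPM and Myh11 at 826 and 765 CPM. Pln, which encodes the calcium pump inhibitor phospholamban, separated the populations in these files: it stood at 128 and 163 CPM in members and had no UMI in basal cells of either library. Cnn1, calponin, ran the other way, at 94.4 and 48.5 CPM in members and 786 and 818 CPM in basal cells. Sncg, gamma-synuclein, stood at 949.8 and 1531 CPM in members and at 23.2 and 17.2 CPM in basal cells. Across the 20 genes of the contractile list the members stood at 42709 CPM (41759 to 43674) and 46609 CPM (45725 to 47506), a log2 ratio of 0.13 (0.08 to 0.17) beside a median of 0.02 over all 1756 genes tested. With no keratin limit it was -0.02, and so was that of Acta2.

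**Figure D1:**
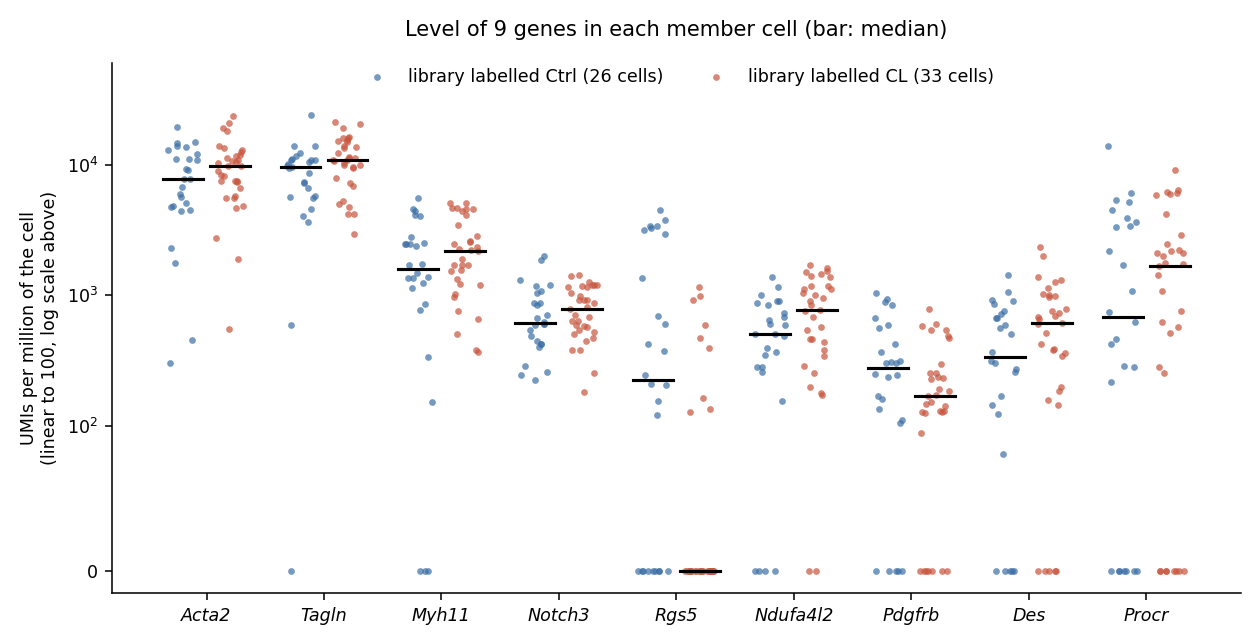
Level of 9 genes in each member cell, in CPM of the cell, on an axis that is linear to 100 and logarithmic above; each point is 1 cell and each bar the median of the 26 or 33 cells of a library. Acta2 was above 0 in every cell, Rgs5 had a median of 0 in the library labelled CL, and Procr ran from 0 to 13906 CPM within a library.

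No promoter was measured, and sequence is shown only for the Acta2 start, because smooth muscle actin had UMIs in every member and so did Notch3. RBPJ, the DNA-binding partner of Notch receptors, binds a core written TGGGAA, and serum response factor with myocardin binds the CArG box. In the RefSeq promoter table (GRCm38.p6), 3 of 7 contractile and Notch genes looked up had an entry: Acta2, Cnn1 and Notch3. Searched on both strands in the 250 bases before the start, TGGGAA occurred 1 time in Acta2, beginning 27 bases upstream, and 0 times in Cnn1 and Notch3. Of 32851 promoters of that length 21.6% held it. The strict CArG box occurred 0 times in all 3 and in 1.47% of promoters, which says only that those letters were not in these windows. Stretches that differ from the strict form in 1 base were not counted. The Acta2 bases below hold such stretches, 1 of them overlapping the TGGGAA match. The 100 bases before the Acta2 start, chr19:34255374-34255473 on the minus strand, are given 5′ to 3′ with the TGGGAA match in capitals.
Acta2: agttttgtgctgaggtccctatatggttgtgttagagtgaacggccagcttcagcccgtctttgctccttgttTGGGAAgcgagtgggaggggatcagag

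The contractile share of a cell's UMIs formed a gradient. Its lowest, median and highest values were 0.212%, 3.99% and 7.55% in the library labelled Ctrl and 1.01%, 4.78% and 7.97% in that labelled CL. Under 3% lay 8 of 26 cells and 4 of 33 cells. The lowest cell of the library labelled Ctrl, of 3308 UMIs, had 1 UMI of Acta2, none of Tagln or Myh11, 46 of Procr, 7 of Steap4 and 3 of Vtn, the gene of vitronectin. It also held 44 UMIs of Ccl2, 3 of Ccl7 and 3 of Col3a1, and 97 of the chemokine and inflammatory list in all. Steap4 stood at 117 and 149 CPM in fibroblasts, above its 50 and 8.82 CPM in members. The lowest cell of the library labelled CL, of 5452 UMIs, had 3 UMIs of Acta2, 16 of Tagln, 5 of Rgs5 and 50 of Procr.

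The Rgs5 level was highest in the lowest tertile of the gradient. In the library labelled Ctrl 7 of 8 cells under 3% had an Rgs5 UMI, and 10 of 18 at or above 3%. In that labelled CL the counts were 3 of 4 and 6 of 29. Over tertiles of cells ranked by contractile share, Rgs5 stood at 2267, 698 and 121 CPM from low to high in the library labelled Ctrl and at 199, 94.2 and 129.8 CPM in that labelled CL. Of the 54 UMIs of the middle tertile in the library labelled Ctrl, 45 lay in 1 cell at 3.14%, next to the edge of the lowest tertile. Across cells Spearman's rho between contractile share and Rgs5 level was -0.64 over 26 cells and -0.38 over 33, a description within 1 library each, where both measures share a denominator and many cells are at 0. Pln ran the other way, with 0 UMIs in the lowest tertile of the library labelled Ctrl against 15 and 8 UMIs above it, and 3, 18 and 16 UMIs in that labelled CL. Notch3 had no slope like that of Rgs5 (rho -0.19 and -0.04).

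**Figure D2:**
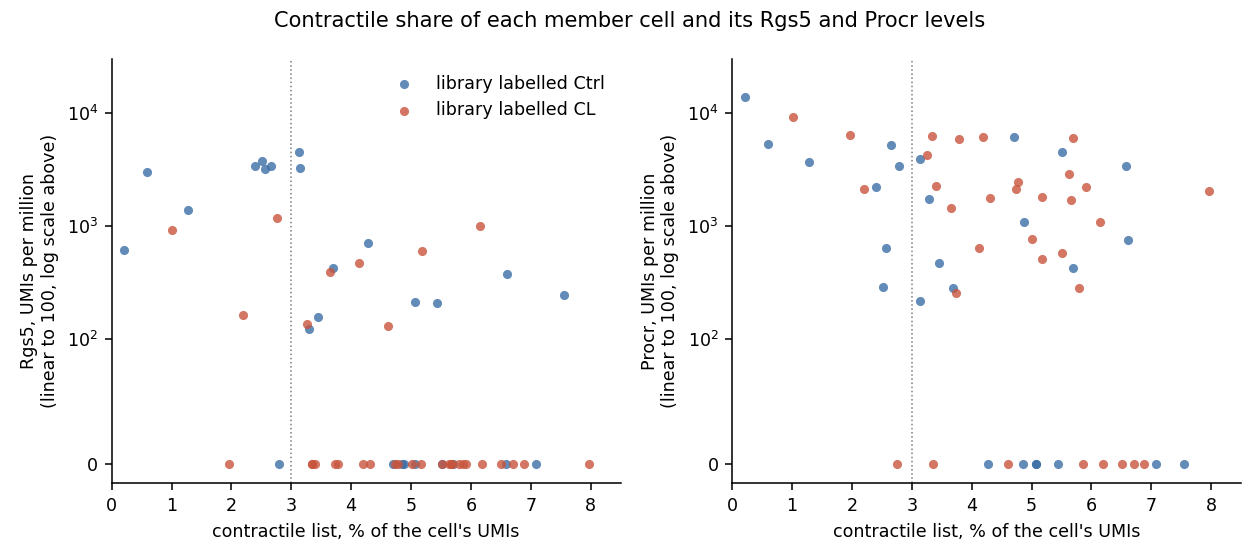
Contractile share of each member cell (20 genes, % of its UMIs) against its Rgs5 level (left) and Procr level (right) in CPM, linear to 100 and logarithmic above; each point is 1 cell and the dotted line stands at 3%. The 8 cells of the library labelled Ctrl with 5 or more Rgs5 UMIs lie at or below 3.14%, and the highest Procr level of each library is in its lowest contractile cell.

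Rgs5 was lower in the library labelled CL. It stood at 905 CPM (772 to 1056; 163 UMIs) in the library labelled Ctrl and 141 CPM (96.5 to 199; 32 UMIs) in that labelled CL, a log2 ratio of -2.68 (-3.28 to -2.13). The 3 richest cells held 90 of the 163 UMIs and 20 of the 32. With each cell thinned to 4989 UMIs, 10 of 18 cells (55.6%, Clopper-Pearson interval 30.8 to 78.5) and 8 of 29 cells (27.6%, 12.7 to 47.2) kept a UMI, intervals that overlap, and 8 and 4 shallower cells were left out. Before thinning, 65.4% and 27.3% of members had one. Empty droplets held 2.27 and 0.631 CPM, so free RNA was far below both levels. The members were required to have 5 UMIs of a sum that includes Rgs5, and the difference is a description of the cells so chosen. Among the other rule genes Notch3 stood at 789 and 812 CPM (0.04, -0.28 to 0.37), Ndufa4l2 at 549.9 and 807 CPM (0.55, 0.19 to 0.92) and Higd1b at 167 and 79.4 CPM (-1.07, -2.00 to -0.18). Abcc9 had 18 and 2 UMIs (-3.5, -6.65 to -1.44) and Kcnj8 had 12 and 3 UMIs (-2.33, -4.8 to -0.44). Of the 12 Kcnj8 UMIs, 11 lay in 1 cell, so no direction can be read from Kcnj8. Below the minimum of UMIs outside the rule, Vtn had 14 and 3 UMIs (-2.56, -5 to -0.71), Art3 had 15 and 6 UMIs (-1.65, -3.31 to -0.21) and Steap4 had 9 and 2 UMIs (-2.5, -5.75 to -0.23). As 7 of the 9 Steap4 UMIs lay in 1 cell, no direction can be read from Steap4 either. Ndufa4l2 turned to -0.02 when cells with over 5% mitochondrial UMIs were left out. Fewer cells of a kind and less RNA per cell cannot be told apart in these sums, and fewer low-contractile cells were drawn in the library labelled CL. Without the cells under 3% contractile UMIs the log2 ratio of Rgs5 was -2.39, but 2 cells just above that limit held 60 of the 76 UMIs left in the library labelled Ctrl. Without the cells under 3.2%, Rgs5 stood at 132 CPM in 16 cells and 105 CPM in 29 cells (-0.33, -1.34 to 0.70). That limit was chosen after seeing the data, and removed those 2 cells but none of the library labelled CL. The smaller ratio was thus fixed by the choice, and nothing is concluded from it on the more contractile members.

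Of 18 mural genes that the rule did not use and that reached the minimum of 100 CPM and 20 UMIs, 12 did not differ between the libraries beyond counting error, among them Mcam, Cspg4 and Sparcl1, while Pdgfrb, S1pr3, Gja4, Ebf1 and Cald1 were lower and Des was higher in the library labelled CL. Pdgfrb had UMIs in 21 of 26 and 26 of 33 cells and stood at 333 and 216 CPM (-0.62, -1.20 to -0.06; -0.02 with a mitochondrial limit of 5%). In fibroblasts, which also carry this receptor, it stood at 219.9 and 147 CPM. Mcam (CD146, a vascular adhesion molecule) stood at 322 CPM in both and Cspg4 (the NG2 proteoglycan) at 122 and 119 CPM. S1pr3, a receptor for sphingosine phosphate, stood at 889 and 622 CPM (-0.51, -0.85 to -0.18; 0.06 with under 3 keratin UMIs). Gja4, the gap junction protein connexin 37, stood at 239 and 97 CPM (-1.30, -2.11 to -0.53), and reversed to 1.47 in the 10 and 16 cells with under 3 keratin UMIs. Des was higher in the library labelled CL, at 455 and 706 CPM (0.63, 0.24 to 1.03). Sparcl1, an adhesion-modulating matrix protein, stood at 2349.6 and 2359.8 CPM. These 1 of 18 genes higher and 5 lower stand beside 7.57% higher and 7.12% lower over all 1756 genes tested, and the median log2 ratio of the 18 was -0.09.

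Procr was carried by most members. It had UMIs in 19 of 26 cells and 25 of 33 cells, with a lowest, median and highest level of 0, 689 and 13906 CPM in the library labelled Ctrl and of 0, 1692 and 9171 CPM in that labelled CL. At 30 or more UMIs lay 5 and 6 cells, while 7 and 8 cells had none. Summed, it stood at 1961 CPM (1762 to 2176) and 2258 CPM (2067 to 2463), a log2 ratio of 0.20 (0.01 to 0.40). That direction turned in 3 of 16 alternatives, to -0.53 with under 3 keratin UMIs, -0.08 with no keratin limit and -0.04 as a mean of cells, so no direction can be read from it. Endothelial cells left after the sort stood at 1064 and 706 CPM, fibroblasts at 269 and 195 CPM, and basal cells at 7.33 and 5.75 CPM, where empty droplets held 11.4 and 11.2 CPM. Members, 0.413% and 0.354% of cells, held 25.3% (23 to 27.7) and 28.3% (26.2 to 30.4) of all Procr UMIs, fibroblasts held 33.2% and 14.1%, endothelial cells 19.3% and 12.4%, luminal cells 11% and 8.5%, immune cells 3.94% and 12%, cells that met none of the rules 5.44% and 23.9%, and basal cells 1.79% and 0.828%. A Procr UMI was found in 78.3% and 57.4% of endothelial cells and in 32.5% and 35.8% of fibroblasts. Basal cells had a Procr UMI in 18 of 357 cells and 11 of 343. Within members the Procr level was highest in the lowest contractile tertile, at 3578, 1395 and 1457 CPM from the lowest to the highest tertile in the library labelled Ctrl and 3573, 1668 and 1544 CPM in that labelled CL (rho -0.51 and -0.42). The study detected Procr-positive stem cells by flow cytometry, as lineage-negative cells with CD24, high CD29 and Procr protein. From its single-cell clusters it also reported a Procr-expressing stem cell subset, which was smaller after the liposomes. Cd24a stood at 38.9 and 70.6 CPM in members, under the 964 and 626 CPM of empty droplets, and Itgb1, which encodes CD29, at 789 and 749.8 CPM. Transcript levels do not show where these cells would fall in that gate. Procr lies at chr2:155751117-155755471 on the plus strand of GRCm38.

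**Figure D3:**
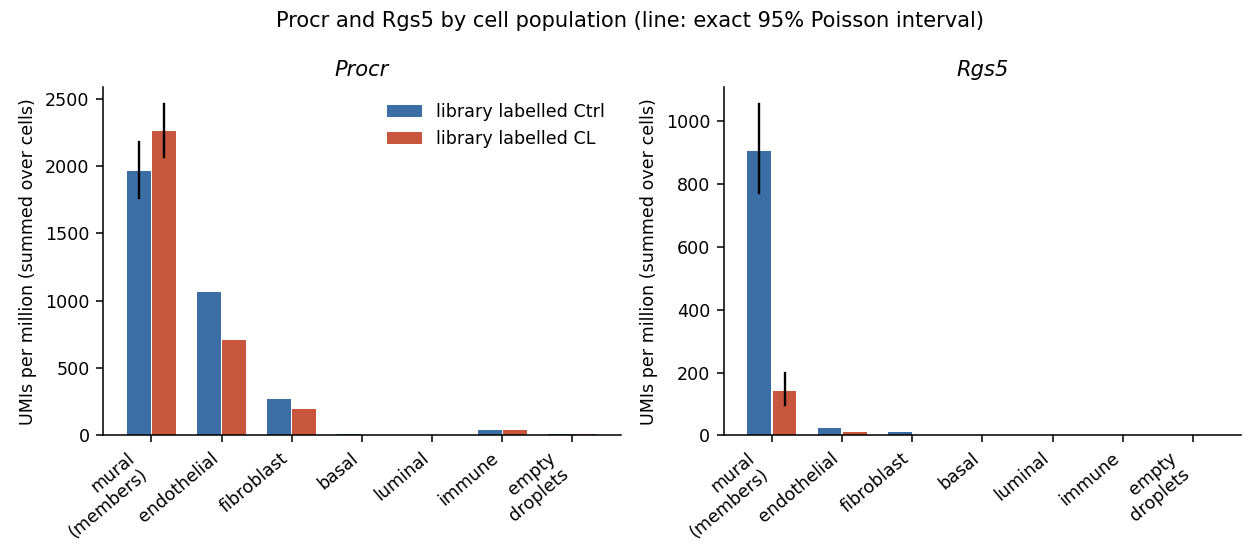
Summed level of Procr (left) and Rgs5 (right), in CPM, in mural members, in populations chosen by other marker rules and in empty droplets (100 to 300 UMIs); lines on the member bars are exact 95% Poisson intervals. Procr stood at 1961 and 2258 CPM in members and at most 7.33 CPM in basal and luminal cells, and Rgs5 did not exceed 23.6 CPM in the other populations shown. The comparison cells were chosen with a low sum of the 6 rule genes, so their low Rgs5 follows from the rules. Cells that met none of the rules, not shown, held 16.1% and 31.9% of all Rgs5 UMIs.

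Notch targets were measured in both libraries. Nrarp, a feedback inhibitor of Notch, stood at 561 and 582 CPM, in 19 and 31 cells, and at 8.21 and 8.05 CPM in basal cells. Heyl, a repressor that Notch3 induces in mural cells, stood at 189 and 181 CPM and at 5.24 and 0.762 CPM in fibroblasts. Hes1, a target in many tissues, stood at 305 and 207 CPM, under the 648 and 521 CPM of empty droplets. None of the 5 list genes past the minimum differed beyond counting error, a count near the 7.57% higher and 7.12% lower over all genes tested, and the sum moved by 0.05 (-0.19 to 0.29).

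Growth factor and vasoactive genes followed. Pdgfa, a ligand of the PDGF receptors, stood at 428 and 560.2 CPM and Fgf1 at 233 and 216 CPM. Tgfb1 was higher in the library labelled CL, with 8 UMIs in 7 cells against 33 UMIs in 20 cells (1.71, 0.57 to 3.04). Kitl, the ligand of the receptor Kit, was lower, at 206 and 106 CPM (-0.96, -1.76 to -0.18; 0.28 with under 3 keratin UMIs). They were the 1 gene higher and the 1 lower of 5 growth factor genes past the minimum, beside 7.57% and 7.12% over all genes tested, and the list's log2 ratio was -0.02 (-0.25 to 0.20). Of 8 vasoactive genes past the minimum none was higher and 2, Rgs16 and Ramp1, were lower beyond counting error, beside 7.57% and 7.12% over all genes tested. Ednra (endothelin receptor A) stood at 167 and 185 CPM, Ednrb (endothelin receptor B) at 200 and 119 CPM (-0.75, -1.52 to 0.01), Avpr1a (vasopressin receptor) at 117 and 172 CPM and P2rx1 (an ATP-gated channel) at 144 and 176 CPM. P2rx1 had no UMI in fibroblasts or basal cells of either library. Rgs16, a brake on G protein signals that cells induce after stimulation, had 41 UMIs in 5 cells of the library labelled Ctrl and 3 UMIs in 2 cells of that labelled CL (-4.11, -6.44 to -2.46). Ramp1, a partner of the receptor for the vasodilator CGRP, stood at 144 and 75 CPM (-0.95, -1.92 to -0.01). Rgs16 made up 41 of the 326 UMIs of the vasoactive list and 3 of its 319, and the list stood at 1811 and 1407 CPM (-0.36, -0.59 to -0.14).

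Basement membrane genes, which mural and endothelial cells lay down together, mostly did not differ beyond counting error. Col4a1 stood at 539 and 503 CPM, Col4a2 at 278 and 313 CPM and Lamb2 at 322 and 362 CPM, and 7 of the 8 list genes past the minimum did not differ beyond counting error. The exception was Sparc (1555 and 1209 CPM; -0.36, -0.61 to -0.12), which stood at 0.02 with cells thinned. The interstitial matrix list was lower in the library labelled CL, at 5399 and 4459 CPM (-0.28, -0.40 to -0.15), with 4 of 8 genes lower and none higher, beside 7.12% and 7.57% over all genes tested. Col3a1, fibrillar collagen of loose tissue, had 68 and 27 UMIs (-1.67, -2.37 to -1). Of the 68, 57 lay among the 6 cells that held Ccl7, Ccl11 or Ccl19, 1 of which had 0 of Col3a1. Without the cells under 3% contractile UMIs the sum moved by -0.03. In fibroblasts Col3a1 stood at 6767 and 3979.8 CPM.

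A minority of members carried more interferon-induced transcripts in the library labelled CL. The list stood at 2711 CPM (2475 to 2962) and 5227 CPM (4933 to 5533), a log2 ratio of 0.95 (0.79 to 1.10). The median cell was nearly the same, at 2371 and 2538 CPM, while 3 of 26 cells and 9 of 33 exceeded 5000 CPM, and the 3 richest held 28.7% and 38.5% of the UMIs. Gbp2, a GTPase induced by interferon gamma, had 10 UMIs in 7 cells and 88 UMIs in 17 cells (2.80, 1.86 to 3.91). Ifitm3, which blocks virus entry, stood at 1577 and 2889 CPM, with UMIs in every member (0.87, 0.67 to 1.08; 0.19 with under 3 keratin UMIs). Isg15, a ubiquitin-like protein, stood at 339 and 538 CPM, in 12 and 18 cells. Ifit3 had 2 and 31 UMIs, of which 1 cell held 23, and a log2 ratio of 0.06 with under 3 keratin UMIs. Of 8 list genes past the minimum 5 were higher beyond counting error and 1, Cxcl10, was lower, beside 7.57% and 7.12% over all genes tested. Cxcl10 had 20 UMIs in 4 cells and 3 in 2, with a log2 ratio of 0.05 without cells under 3% contractile UMIs. The median log2 ratio of the list's genes was 0.77 against 0.02 over all genes tested. Fibroblasts (1.19), endothelial cells (0.78) and basal cells (1.18) moved the same way on this list, and so did empty droplets, from 1344 to 2477 CPM. The part of free RNA in the members' difference was not tested. With under 3 keratin UMIs, which leaves 10 and 16 cells, the log2 ratio was 0.10, and over all 17 alternatives it lay between 0.10 and 1.38.

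Of 5 antigen presentation genes past the minimum, 3 (B2m, H2-K1 and Psmb8) were higher in the library labelled CL beyond counting error and none was lower, beside 7.57% and 7.12% over all genes tested. The list stood at 1416 and 2351 CPM (0.73, 0.51 to 0.95), with B2m, the light chain of class I molecules, at 344 and 582 CPM and H2-K1 at 399.9 and 723 CPM. H2-D1 did not differ beyond counting error, at 467 and 512 CPM. H2-M9, a class I gene outside the list, had 27 UMIs in 4 cells and 5 in 1 (-2.77, -4.5 to -1.37), and turned to 2.17 with a mitochondrial limit of 5% and to 0.05 with cells thinned. Psmb8, a subunit of the immunoproteasome, had 3 UMIs in 3 cells and 30 in 7 (2.99, 1.3 to 5.35). Empty droplets held 3969 and 5783 CPM of the list, above the members' own level. With under 3 keratin UMIs the log2 ratio of the list turned to -0.49, that of B2m to -0.72 and that of Isg15 to -0.61, while H2-K1 stood at 0.06 and Psmb8 at 0.47.

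Of 16 chemokine and inflammatory genes past the minimum, 5 were lower (Ccl2, Ccl7, Ccl11, Ccl19 and Il6) and 4 higher (Cxcl2, Serping1, Nfkbia and Nfkbiz) in the library labelled CL beyond counting error, beside 7.12% and 7.57% over all genes tested. Serping1 turned to -0.22 with under 3 keratin UMIs, and Nfkbia to -0.30 with a mitochondrial limit of 5%. Ccl11, the eosinophil attractant eotaxin, had 78 UMIs in 4 cells of the library labelled Ctrl and 0 in that labelled CL, at least 32.7-fold lower against a floor of 3 UMIs over all its members. Ccl7, a monocyte attractant, had 45 UMIs in 3 cells and 0, at least 18.9-fold lower. Ccl19, a ligand of CCR7 on lymphocytes and dendritic cells, had 27 UMIs in 3 cells and 0, at least 11.3-fold lower. The 6 cells that held any of these 150 UMIs were 6 of the 26 members of that library. One of them, the cell marked as a doublet, held 27 of the 45 Ccl7 UMIs and 184 chemokine UMIs in all, and also 13 of Rgs5, 20 of Procr and 24 of Col3a1. Ccl2, the main monocyte attractant, stood at 717 and 225 CPM (-1.67, -2.17 to -1.19), in 10 cells of each library, and ran from -3.90 to -0.73 over 16 alternatives. Il6 stood at 844 and 419 CPM (-1.01, -1.40 to -0.63), in 23 and 20 cells. Cxcl1, a neutrophil attractant, stood at 1394 and 1416 CPM, in 16 and 27 cells. Cxcl2, of the same family, had 18 UMIs in 6 cells and 57 in 5 (1.33, 0.54 to 2.18), with alternatives from -1.57 to 4.3. The summed list stood at 7915 and 6674 CPM (-0.25, -0.35 to -0.14), with median cells of 6082 and 5695 CPM. The log2 ratio was -0.08 without the marked cell and 0.05 without cells under 3% contractile UMIs. Over 17 alternatives it ran from -0.84, with under 3 keratin UMIs, to 0.05. In fibroblasts Ccl11 stood at 934 and 814 CPM and Ccl2 at 4968 and 6025 CPM, and the part of fibroblast RNA in the member cells was not tested. The ligand Tnf had 0 UMIs in members of both libraries, of 3559 and 5520 in all cells, while its receptor Tnfrsf1a stood at 278 and 243 CPM in members.

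**Figure D4:**
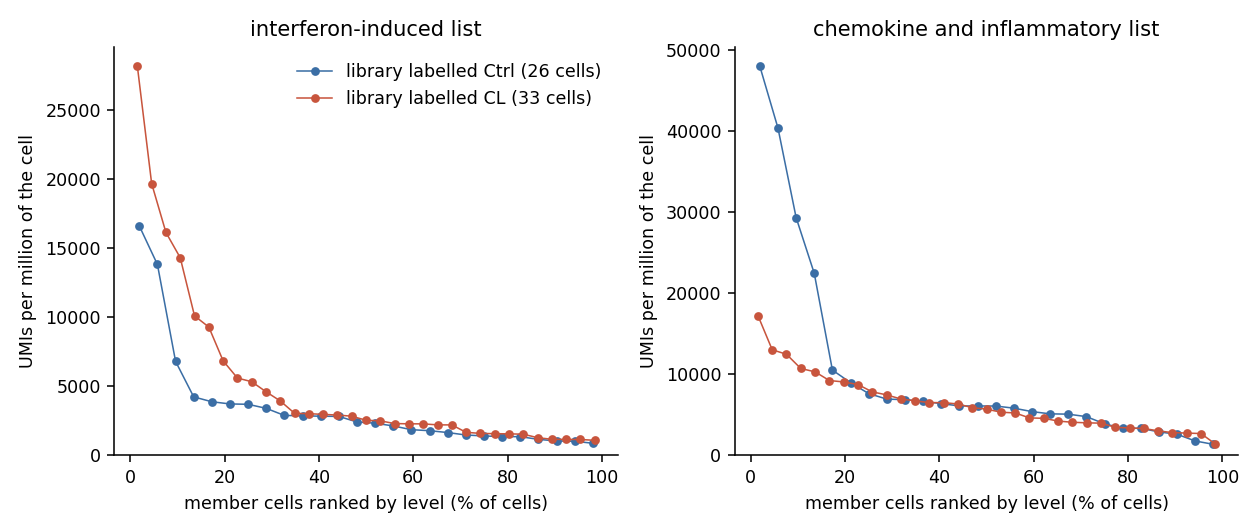
Member cells ranked by their level of the interferon-induced list (left) and the chemokine and inflammatory list (right), in CPM of the cell, against rank as % of the 26 or 33 cells. The curves lie close together over most ranks (medians 2371 and 2538, and 6082 and 5695), and the gaps between the libraries are in the highest cells.

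Stress genes were abundant in both libraries. The immediate early and heat shock list stood at 29106 and 31634 CPM (0.12, 0.07 to 0.17), against 23808 and 22370.2 CPM in empty droplets, and turned to -0.17 with a mitochondrial limit of 5%. Fos stood at 2677 and 2659.7 CPM and Atf3 at 1572 and 2289 CPM (0.54, 0.33 to 0.76). Such genes respond to tissue digestion, and that part was not tested. The hypoxia and metabolism list stood at 18629.9 and 15469 CPM (-0.27, -0.34 to -0.20). Mt1, a metal-binding metallothionein, stood at 10154 and 6396 CPM (-0.67, -0.77 to -0.57), and without it the list stood at 8476 and 9073 CPM and its log2 ratio turned to 0.10. Division genes gave 32 and 39 UMIs, 178 and 172 CPM, under the 312 and 208 CPM of empty droplets.

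**Figure D5:**
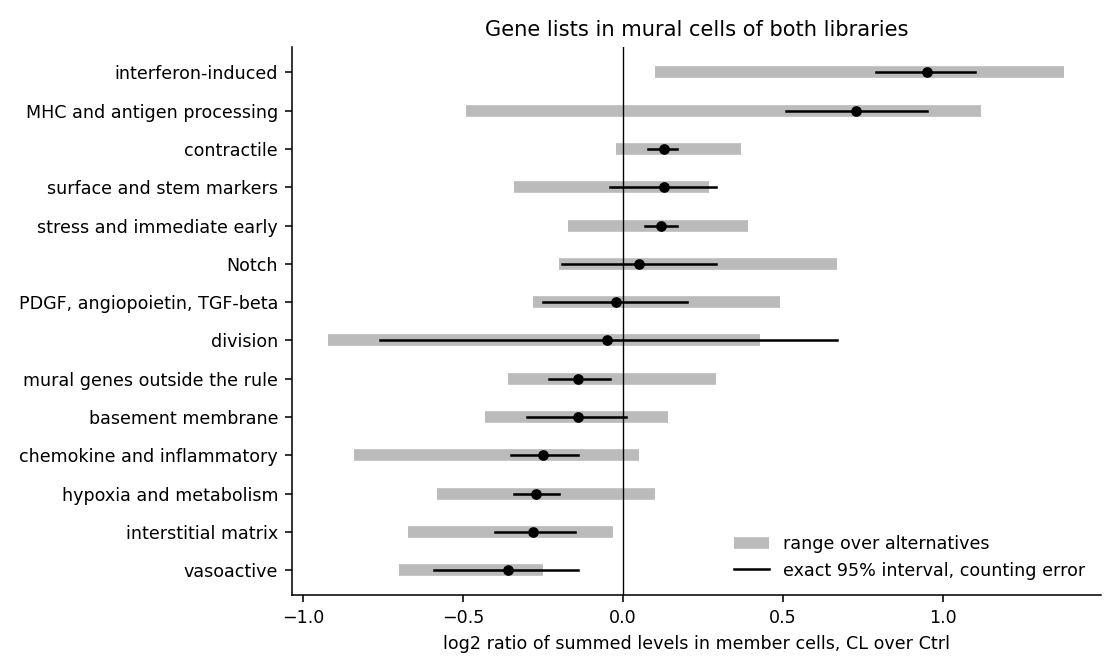
Log2 ratio of summed CPM, CL over Ctrl, for 14 gene lists in member cells; points are the values over all 26 and 33 members, black lines exact 95% intervals for counting error, grey bars the range over the alternatives tried. The interferon-induced list lies highest at 0.95 with alternatives from 0.10 to 1.38, and 3 of the 14 lists stay on 1 side of 0 in every alternative tried (interferon-induced, interstitial matrix, vasoactive). Interstitial matrix came as near to 0 as -0.03. Leaving out Rgs16, with 41 and 3 UMIs of the vasoactive list, was not among the alternatives.

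Of the 1756 genes that reached 100 CPM and 20 UMIs in whichever library was higher, 56 (3.19%) were at least 2-fold higher and 54 (3.08%) at least 2-fold lower in the library labelled CL. The 10 with the highest ratios were Ifit3, Egr3, Psmb8, Gbp2, Kcnq1ot1, Abt1, Psmb10, Tgfb1, Ifi47 and Sgk1. Psmb8, Psmb10, Gbp2, Ifit3 and Ifi47 are induced by interferon, Egr3 is an immediate early factor (2 and 23 UMIs) and Sgk1 a stress and steroid-induced kinase (15 and 58 UMIs). Over 16 alternatives the log2 ratio of Ifi47 ran from -2.26 to 4.01 and that of Psmb10 from 0.06 to 2.79. The 10 with the lowest were Ccl11, Ccl19, Ccl7, Rgs16, Tnfaip6, Sdc1, Cxcl10, H2-M9, Rgs5 and Foxf1. Foxf1 was tied for the last place with Foxo1, Gstt1 and Sh3bgr, which also had 20 and 5 UMIs. Tnfaip6, a hyaluronan-binding protein induced by TNF, had 29 UMIs in 9 cells and 3 in 3. Sdc1, the heparan sulfate proteoglycan syndecan 1, had 41 UMIs in 10 cells and 5 in 4. Foxf1, a transcription factor of mesenchyme, had 20 UMIs in 10 cells and 5 in 5. In 11 of these 20 genes fewer than 10 cells held a UMI in the library where the gene was higher, so single cells weigh heavily.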

How the data were processed

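Cells of mammary gland were sorted by the authors as CD31- and TER119- and made into one 10x Genomics 3' library per condition. The deposited values were raw UMI counts per gene and barcode, with no normalization. The matrix header named Cell Ranger 4, whereas the submitters' processing notes named Cell Ranger 2.1.1 with build mm10 (GRCm38). The matrices held 32285 genes, 6794880 barcodes and 118743318 (Ctrl) and 155765480 (CL) UMIs, before any call of cells. The deposited barcode lists did not index the columns, so the 7217 and 10555 barcodes with most UMIs were used as candidates (at least 615 and 648 UMIs). Cells with at least 500 genes and at most 15% mitochondrial UMIs were kept.

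Members and gene lists were chosen with earlier results of these data known. Comparison populations were set by like rules: fibroblasts by Dcn and Lum, endothelial cells by Cdh5, basal cells by Krt5 and Krt14, luminal cells by Krt8 and Krt18, immune cells by Ptprc. All but fibroblasts also had to have under 5 UMIs of the 6 rule genes, and fibroblasts fewer of these than of Dcn plus Lum. Barcodes of 100 to 300 UMIs (54275 and 55973) gave the level of free RNA. UMIs were summed over member cells, divided by their total and given as CPM. Log2 ratios are CL over Ctrl with an exact conditional binomial interval. Shares have Clopper-Pearson and sums Poisson intervals (95%). With 1 library a group no test was run. Named genes were the rule genes, list genes with at least 100 CPM in a library or a role in the study, the 10 highest and 10 lowest ratios where the higher library reached 100 CPM and 20 UMIs (leaving out unnamed genes and those for ribosomal proteins, haemoglobins, mitochondrial transcripts and sex chromosomes), and the 15 leading genes. Doublets were kept. Scrublet (scanpy 1.11.5) marked 5.72% of Ctrl cells, and as its automatic threshold marked none in CL, the Ctrl threshold was used there (5.45%). TMM factors came from edgeR 4.0.16. Gene positions were from GENCODE M21 for 32235 of 32285 genes. Python 3.11.15, numpy 2.4.6 and scipy 1.17.1 were used, and the scripts were tested on simulated data. The alternatives changed the limits on genes, mitochondrial UMIs, rule sum, keratin and exclusion genes, doublets, scaling, depth and top cells. Further alternatives, leaving out members under 3% (for Rgs5 also 3.2%) contractile UMIs and leaving out the gene of most UMIs in each list, were chosen after seeing the data.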

Additional observations from a re-analysis of the deposited data

Results flagged for a closer look

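Several gene lists moved beyond counting error in 1 direction in mural cells and in the other direction in another population of the same libraries. None of these differences between populations was tested, since 1 library stood for each condition, and values are log2 ratios of summed CPM, CL over Ctrl. The chemokine and inflammatory list stood at -0.25 in mural cells against 0.26 in fibroblasts, 0.17 in endothelial cells and 0.27 in basal cells. Luminal cells also moved up (0.33), whereas immune cells moved down (-0.74), as mural cells did. In mural cells the list stood at -0.08 without the marked doublet, 0.05 without cells under 3% contractile UMIs and -0.84 with under 3 keratin UMIs. The stress and immediate early list stood at 0.12 in mural cells against -0.30 in fibroblasts and -0.39 in endothelial cells, and turned to -0.17 with a mitochondrial limit of 5%. Luminal (-0.02) and immune cells (-0.45) also moved down on it, and basal cells (0.07) moved up. The hypoxia and metabolism list stood at -0.27 against 0.12 in fibroblasts and 0.08 in basal cells, and without Mt1 at 0.10 against 0.03 and 0.05. On the full list endothelial (-0.12), luminal (-0.14) and immune cells (-0.06) moved as mural cells did. The contractile list stood at 0.13 against -0.44 in fibroblasts, and at -0.02 with no keratin limit. Basal and luminal cells (0.08 each) moved as mural cells did, and endothelial cells (-0.06, -0.21 to 0.10) did not differ beyond counting error. The interstitial matrix list stood at -0.28 against 0.91 in endothelial cells, and at -0.03 without cells under 3% contractile UMIs. Fibroblasts (-0.74), basal (-0.16), luminal (-0.40) and immune cells (-1.22) moved as mural cells did. In endothelial cells the fibroblast list was also higher in the library labelled CL, at 567 and 2345 CPM (2.05, 1.79 to 2.31). The part of fibroblast RNA in the endothelial values was not tested. The mural genes outside the rule stood at -0.14 against 0.32 in endothelial cells, and turned to 0.29 with under 3 keratin UMIs. Fibroblasts (-0.23), basal (-0.21), luminal (-0.13) and immune cells (-1.11) moved as mural cells did. In endothelial cells this list stood at 1257 and 1569.5 CPM, and its gene Postn, at 4125 and 3440 CPM in fibroblasts, stood at 39.4 and 430 CPM.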

How the results depend on the processing

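Of 312 values of shares, list sums, Procr and counts of genes under an alternative, 245 stayed within the counting interval of the value reported (counts within 1.5 times), 58 moved outside it and 9 turned in direction where the reported interval lay on 1 side of 0. Counting every value, 31 of the 312 had the opposite sign. Of 1638 values for 103 single genes, 143 moved outside the interval, 20 turned in direction from an interval on 1 side of 0, and 151 had the opposite sign. No paired analysis was possible because each condition had 1 library. Rgs5 stayed between -3.08 and -2.38 in 16 alternatives, and stood at -0.33 in the other, without cells under 3.2% contractile UMIs. All values below are log2 ratios, CL over Ctrl, unless called genes. With a mitochondrial limit of 5% (12 and 12 cells) Notch stood at 0.51, vasoactive at -0.70, interstitial matrix at -0.48, interferon at 1.12, chemokine at -0.67, stress at -0.17, hypoxia at -0.37, Ndufa4l2 at -0.02, Adamts4 at 0.33, Cxcl2 at -1.57, Nfkbia at -0.30, H2-M9 at 2.17 and Nrip2 at -0.15, with 30 genes at least 2-fold lower. With under 3 keratin UMIs (10 and 16 cells) mural genes outside the rule stood at 0.29, contractile at 0.37, Notch at 0.67, growth factors at 0.49, basement membrane at -0.42, interferon at 0.10, MHC at -0.49, chemokine at -0.84, stress at 0.39, hypoxia at -0.58, surface and stem markers at -0.34, Procr at -0.53, Gja4 at 1.47, S1pr3 at 0.06, Kitl at 0.28, Isg15 at -0.61, B2m at -0.72, Cxcl2 at -0.62, Serping1 at -0.22 and Ifi47 at -2.26, with 92 genes at least 2-fold higher. With no keratin limit (28 and 39 cells) mural genes outside the rule stood at -0.36, contractile and Acta2 at -0.02, Notch at -0.20, growth factors at -0.28, basement membrane at -0.43, interstitial matrix at -0.67, interferon at 0.59, chemokine at -0.05, hypoxia at -0.38, Procr at -0.08 and Jun at 0.05. A rule sum of at least 3 UMIs gave contractile 0.21 and interferon 0.77, and at least 10 UMIs gave Acta2 -0.01. With Ptprc and Cdh5 allowed, chemokine stood at -0.12 and hypoxia at -0.35, and without marked doublets chemokine stood at -0.08. Without members under 3% contractile UMIs, contractile stood at 0.03, basement membrane at 0.02, interstitial matrix at -0.03, interferon at 1.38, MHC at 1.12, chemokine and Cxcl10 at 0.05, with 32 genes at least 2-fold lower. The mean of each cell's CPM gave contractile 0.22, interstitial matrix -0.46, interferon 0.57, MHC 0.41, chemokine -0.64, stress 0.19 and Procr -0.04. Without the top cell hypoxia stood at -0.19. Without the gene of most UMIs in each list, hypoxia stood at 0.10, contractile at 0.08, interstitial matrix at -0.56, chemokine at -0.43 and division at -0.92. Thinning gave basement membrane 0.14, interferon 1.24, MHC 1.01, chemokine -0.09, hypoxia -0.38, Procr 0.48, Sparc 0.02 and H2-M9 0.05, with 18 genes at least 2-fold lower. A minimum of 200 CPM and 40 UMIs left 12 genes higher and 12 lower, and no minimum beyond 1 UMI gave 2472 and 2478. The cause of these changes was not tested. Members held 180033 and 226715 UMIs in all, so that the floor of 3 UMIs stood at 16.7 and 13.2 CPM.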
